A study of Homo sapiens with 3 samples.

Results

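The genes described here are 9 genes of epithelial cell junctions and epithelial identity (*CDH1*, *EPCAM*, *CLDN1*, *CLDN3*, *CLDN4*, *CLDN7*, *OCLN*, *TJP1* and *ESRP1*) and *VIM*, a mesenchymal gene, 10 genes in all. They were chosen by name, and each was read from every array probe whose transcript accession belongs to it. All 10 had a probe, 12 probes in total. Of the 10 genes, 8 were measured, meaning that a probe stood well above background on all arrays, among 12031 such genes on the array. *CLDN1* stayed at background on every array, and *VIM* stood clear of it with control siRNA only. Expression was measured in HCT116, an established line of human colon cancer cells, treated for 48 h with control siRNA, with siRNA #7 or with siRNA #8. Both of the latter were designed against *HOXA5* short RNA, a transcript from the *HOXA6*-*HOXA5* locus. Each condition is 1 array, made from 400 ng of total RNA, so no difference between conditions could be tested and the spread between cultures is unknown. All 3 arrays lay on 1 slide and were read in 1 scan.

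The sequences of both siRNAs are shown because they overlap on the same transcript, so that #7 and #8 are not independent target sites. Capitals mark the 17 bases they share, and each has 4 bases of its own out of 21. They are written 5′ to 3′ as the study lists them, and the strand is not named there.
siRNA #7: gagaAACUGAAAGACAACAUA
siRNA #8: AACUGAAAGACAACAUAggcg

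Epithelial cells are held together by adherens junctions, where E-cadherin (*CDH1*) binds its like on the neighbouring cell, and by tight junctions, where claudins and occludin seal the gap between cells and zonula occludens proteins tie them to actin. Many colon cancer cells keep these genes on. When epithelial cells turn mesenchymal, junction genes are usually repressed by the SNAIL, ZEB and TWIST families, and vimentin, the intermediate filament protein of mesenchymal cells, appears. *ESRP1*, a splicing factor restricted to epithelia, is also lost in that process.

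Levels are log2 intensities relative to the 75th percentile of intensity on the same array, and a log2 ratio is the difference of 2 such levels. The 75th percentile was 84.5, 66.6 and 68.8 intensity units (control, #7, #8), and between 19066 and 20471 probes were well above background. Unless stated otherwise, the error given after ± is the SD of a ratio between repeated spots (the spot-to-spot SD). It was taken from probes printed 10 times on each array and covers the measurement on the slide only. For *CDH1* and *CTNNB1*, whose probes read here were printed 10 times, it is the error of the mean over those spots. It is therefore smaller there than for a probe printed once. Levels of different probes are not comparable with each other. The *HOXA5* probe read 84.9, 52.6 and 58.5 intensity units (control, #7, #8), with log2 ratios of -0.35 ± 0.25 and -0.24 ± 0.26. Whether it reads *HOXA5* short RNA is not known. Of 8 colon carcinoma markers, 6 were well above background on every array (*EPCAM*, *CDH1*, *KRT8*, *KRT18*, *KRT19*, *CDX2*), whereas *VIL1* and *CDH17* were not on any.

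Among the epithelial genes, *CDH1* was higher with both siRNAs, and no other epithelial gene differed from control in the same direction with both siRNAs by more than 2 spot-to-spot SDs. The *CDH1* error is that of a mean over 10 spots, so its limit is narrower than that of the other members. None of the 8 reached 2-fold with either siRNA. *VIM* was not well above background with either siRNA, so its difference is given as a bound. The bound sets the control signal against the larger of the siRNA signal and the lowest signal well above background. By it *VIM* was 2.48-fold lower with siRNA #7, which is the measured ratio itself, and 2.53-fold lower with siRNA #8.

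**Figure D1:**
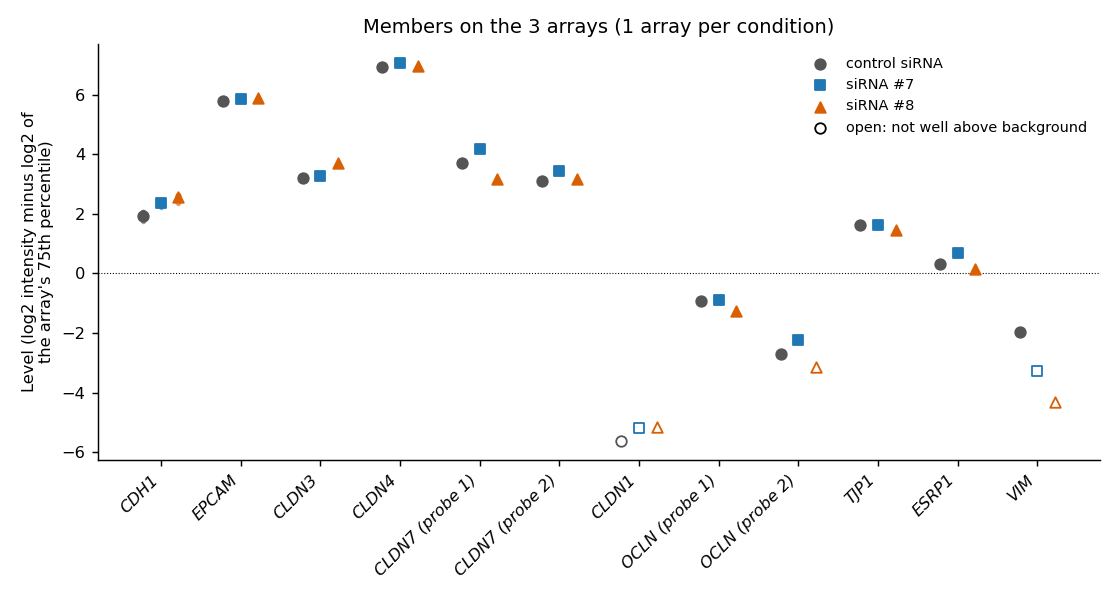
Level of each member probe (log2 scale, relative to the array's 75th percentile) on the control siRNA, siRNA #7 and siRNA #8 arrays, 1 point per array and open where the probe was not well above background. *CDH1* stands higher on both siRNA arrays than on the control array, and *VIM* falls to open symbols on both; heights of different probes are not comparable.

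*CDH1* encodes E-cadherin, the adhesion receptor of adherens junctions. Its probe is printed 10 times on the array, so it is the member with the best measured level. Over its spots the intensity had a median of 322.4 in control cells (lowest 283.6, highest 354.4), 351.6 under siRNA #7 (315.5 to 370.8) and 415.5 under siRNA #8 (351.4 to 429.8). On the log2 scale relative to the array, the level was 1.94 ± 0.10 in control cells, 2.38 ± 0.08 under siRNA #7 and 2.57 ± 0.09 under siRNA #8 (SD over 10 spots). On this scale the highest control spot (2.07) lay below the lowest spot of siRNA #7 (2.24) and of siRNA #8 (2.35). The unscaled intensities did overlap, so this separation depends on the scaling, which is 1 value per array shared by all its spots. Spots of 1 array repeat the measurement and not the culture. Relative to control the log2 ratio was 0.43 ± 0.05 under siRNA #7 and 0.62 ± 0.05 under siRNA #8. At the same array positions the level was higher in 10 of 10 spots for each siRNA, and also in 10 of 10 spots for siRNA #8 over siRNA #7, by 0.19 ± 0.05. The count for siRNA #7 over control depends on the scaling too. Unscaled, siRNA #7 read below control at spot 3 (349.9 against 354.4) and at spot 9 (347.8 against 349.5). On the scaled levels the order was control, #7, #8, with all steps larger than this error, which for *CDH1* is that of a mean over 10 spots. The ratio stayed above 0 under every scaling tried, but scaling by the E1A spike-in controls, which shifts all genes alike and put their median at -0.31 and -0.23, lowered it to 0.10 and 0.39. With normexp background correction the ratio was 0.24 and 0.44.

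*EPCAM* encodes the epithelial cell adhesion molecule, a surface glycoprotein of simple epithelia. Its intensity was 4653 units in control cells, 3883 under siRNA #7 and 4084 under siRNA #8. Scaled to the arrays, the log2 ratios were 0.08 ± 0.14 and 0.11 ± 0.15, so the 3 arrays did not differ beyond the spot-to-spot error. *EPCAM* was measured far above background on all arrays, and a change as large as that of *CDH1* with siRNA #8 was not seen.

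Claudins are the membrane proteins that form the tight junction strands and set which ions pass. *CLDN4* read 10244, 8956 and 8680 intensity units (control, #7, #8). Its log2 ratios were 0.15 ± 0.14 and 0.06 ± 0.15, with no difference among the arrays beyond 2 SDs. *CLDN3* read 783.8, 647.0 and 896.1 intensity units in the same order. Its log2 ratio was 0.07 ± 0.15 with siRNA #7 and 0.49 ± 0.17 with siRNA #8. The median log2 ratio of 14 spots around the *CLDN3* spot was 0.21 with siRNA #7 and 0.17 with siRNA #8. With the neighbours' deviation removed, the *CLDN3* ratio was -0.13 and 0.31. The value with siRNA #8 was then under 2 SDs, as it was with E1A scaling (0.26) and normexp (0.22), so a higher *CLDN3* level with siRNA #8 depends on the processing. *CLDN1* read 1.72, 1.83 and 1.95 intensity units, all at background, and has no ratio.

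*CLDN7* was the member on which the siRNAs differed most. Its brighter probe read 1094 intensity units in control cells, 1203 under siRNA #7 and 619.8 under siRNA #8. The log2 ratio was 0.48 ± 0.15 for #7 and -0.52 ± 0.17 for #8, and siRNA #8 lay -1.0 ± 0.15 from siRNA #7, a 2-fold difference. A second *CLDN7* probe read 719.5, 725.9 and 618.0 intensity units. There the log2 ratio was 0.35 ± 0.15 with siRNA #7 but 0.08 ± 0.17 with siRNA #8, and siRNA #8 lay -0.28 ± 0.15 from siRNA #7. The probes therefore gave the same order of siRNA #7 over siRNA #8, while the lower level with siRNA #8 than with control came from the brighter probe alone. Averaged over both probes, the log2 ratio with siRNA #8 was -0.22.

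Occludin (*OCLN*) is a membrane protein of the tight junction, and *TJP1* encodes ZO-1, the scaffold under the junction. The brighter *OCLN* probe read 44.1 intensity units in control cells, 35.7 under siRNA #7 and 28.9 under siRNA #8. Its log2 ratios were 0.04 ± 0.33 and -0.31 ± 0.34, within the wide error at this low signal. A dimmer *OCLN* probe read 12.9, 14.1 and 7.77 intensity units and was not well above background with siRNA #8. Against control its log2 ratio was 0.47 ± 0.40 with siRNA #7 and, as measured, -0.44 ± 0.41 with siRNA #8. Both *OCLN* probes were lowest with siRNA #8, but the brighter one did not differ among arrays beyond the spot-to-spot error. *TJP1* read 261.6, 204.2 and 187.7 intensity units, with log2 ratios of -0.01 ± 0.16 and -0.18 ± 0.18, and its arrays did not differ beyond 2 SDs either.

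*ESRP1*, the epithelial splicing factor, read 106.4 intensity units in control cells, 108.0 under siRNA #7 and 76.7 under siRNA #8. Relative to control its log2 ratio was 0.36 ± 0.16 for #7 and -0.18 ± 0.21 for #8, the latter within the error. The level under siRNA #8 lay -0.54 ± 0.20 from that under siRNA #7. *ESRP1* and both *CLDN7* probes thus had their highest level under siRNA #7.

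**Figure D2:**
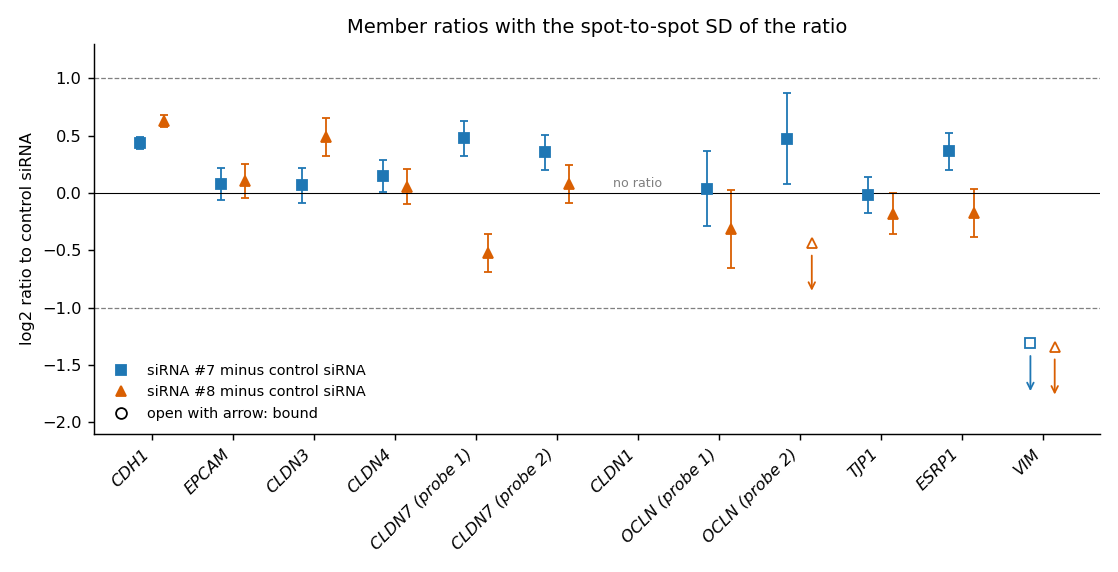
Log2 ratio of each member probe to control siRNA for siRNA #7 and siRNA #8, with bars of 1 spot-to-spot SD and dashed lines at 2-fold. The *CDH1* bar is the error of a mean over 10 spots. Open symbols with arrows are bounds where a probe was not well above background on the siRNA array; *VIM* is beyond 2-fold with both siRNAs, *CDH1* lies above 0 with both, and *CLDN7* probe 1 lies on opposite sides.

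*VIM* encodes vimentin. Its 1 probe read 21.7 ± 2.6 intensity units in control cells, 6.9 ± 1.8 under siRNA #7 and 3.5 ± 1.6 under siRNA #8. Here the error is the one given by Agilent Feature Extraction and not the spot-to-spot SD. The control signal was low but flagged as clear of background, and neither siRNA signal was. The lowest signal that counted as well above background was 6.75 units on the array of siRNA #7 and 6.98 units on that of siRNA #8. On the log2 scale the measured ratios were -1.31 and -2.34, with spot-to-spot SDs of 0.40 and 0.41. Since the siRNA signals are at background, only the bounds of 2.48-fold and 2.53-fold are given as differences, and siRNA #7 and siRNA #8 cannot be ordered. With siRNA #7 the signal lay above the lowest signal well above background, so that bound is the measured ratio and not a least fold. Around the *VIM* spot, 11 spots had a median log2 ratio of 0.04 for #7 and -0.11 for #8, and none of them was 2-fold lower with either. With normexp background correction, which adds an offset of 50 to each signal, the bound shrank to log2 ratios of -0.14 and -0.28. That offset exceeds the control signal, so a 2-fold difference was out of reach there.

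Losing the flag was not rare. Of 20471 probes well above background with control siRNA, 1098 were so with neither siRNA (5.36%). The control array was brighter: 1762 probes were well above background there but not with siRNA #7, against 357 the other way, and 1686 against 462 for siRNA #8. Of those 1762 probes, 118 were at least 2-fold lower by the bound with siRNA #7 (6.7%), and of the 1686 probes, 134 were with siRNA #8 (7.95%). Both applied to 40 of the 1098 probes (3.64%), *VIM* among them. Vimentin is also made by stromal and blood cells, so their markers are given beside it. Of 7 fibroblast markers, only *COL1A1* was well above background, and *COL3A1*, *DCN* and *LUM* were not on any array. The summed fibroblast marker level (relative to the 75th percentile) was 0.73, 0.58 and 0.70 (control, #7, #8). Of 5 leukocyte markers with a probe, 2 or 3 were well above background (*CD79A* and *CD68* on all arrays), and *PTPRC* and *CD3E* were not on any. The summed leukocyte level was 7.23, 6.89 and 9.08, nearly all of it from the 1 *CD79A* probe (log2 levels 2.78, 2.73 and 3.12). Since levels of different probes are not comparable, the sums of the lists cannot be set against each other. No endothelial marker of 4 stood clear of background with control siRNA, and *VWF* alone was with the siRNAs.

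The median of the epithelial members lay near that of all genes measured with either siRNA. With siRNA #7 their median log2 ratio was 0.11 against 0.03 over all genes. Of the members, 7 of 8 were above 0 there, against 53.1% of all genes. With siRNA #8 the median was -0.06 against 0.00, with 4 of 8 above 0 against 49.9% of all genes. The sign of the median with siRNA #7 turned under E1A scaling (-0.23), and that with siRNA #8 turned to 0.06 without a filter on dim probes and was 0.00 with the percentile taken over detected probes. None of the 8 was 2-fold higher or lower with siRNA #7, where 2.12% of all genes were higher and 1.68% lower. None was with siRNA #8 either, where 1.9% were higher and 3.09% lower. At 1.5-fold, no member passed with siRNA #7 (7.9% of all genes higher, 6.66% lower), and with siRNA #8 only *CDH1* did (7.58% higher, 10.5% lower). No epithelial member was 2-fold higher or lower with both siRNAs, against 0.74% of genes higher and 0.158% lower with both; these comparisons share the control array.

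**Figure D3:**
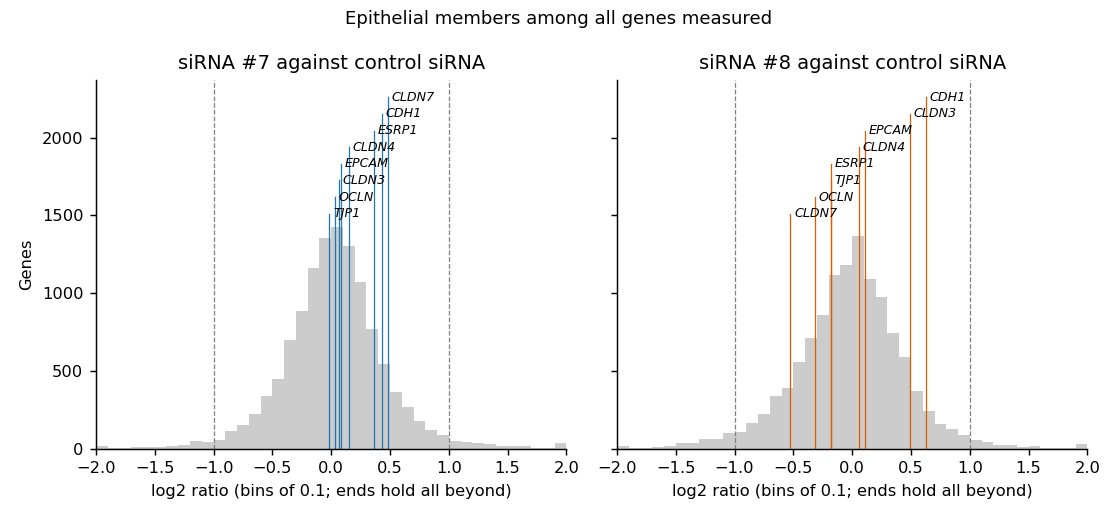
Number of genes per bin of log2 ratio to control siRNA for 12031 genes, with a vertical line at each of the 8 epithelial members measured and dashed lines at 2-fold. With siRNA #7 the members lie between -0.01 (*TJP1*) and 0.48 (*CLDN7*), and with siRNA #8 between -0.52 (*CLDN7*) and 0.62 (*CDH1*), all inside 2-fold.

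More than 2 spot-to-spot SDs separated siRNA #7 from control for 3 of 8 members (*CDH1*, *CLDN7*, *ESRP1*), where 29.8% of all genes passed the same limit. For siRNA #8 it was also 3 of 8 (*CDH1*, *CLDN3*, *CLDN7*), against 31.4%. These shares are near those of all genes. E1A scaling lowered the siRNA #7 ratios of *CLDN7* and *ESRP1* to 0.14 and 0.02, under 2 SDs. The siRNAs were also set against each other, without the control array. *CDH1* (0.19 ± 0.05) and *CLDN3* (0.42 ± 0.15) were higher with siRNA #8, and *CLDN7* (-1.0 ± 0.15) and *ESRP1* (-0.54 ± 0.20) were lower, which made 4 of 8 past 2 SDs against 37.4% of all genes. In these comparisons the limit was narrower for *CDH1*, whose error is that of a mean over 10 spots, than for the other members. *EPCAM*, *CLDN4*, *OCLN* and *TJP1* did not pass in any of the comparisons. *CLDN7* was the only member 2-fold apart between the siRNAs (2.14% of all genes were 2-fold higher with siRNA #8 and 3.61% lower), and its second probe was not.

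Other parts of the junctions were read from lists chosen by function. Of 11 genes of the adherens junction, 10 were measured, and their median log2 ratio was 0.02 with siRNA #7 and -0.02 with siRNA #8. *CTNNA1*, α-catenin, which links E-cadherin complexes to actin, was the only one past 2-fold, lower with siRNA #7. Its brighter probe read 1657 intensity units in control cells, 504.8 under siRNA #7 and 1442 under siRNA #8, and its log2 ratios were -1.37 ± 0.14 and 0.09 ± 0.15. A dimmer *CTNNA1* probe read 21.0, 78.8 and 113.2 intensity units, which is 2.25 ± 0.34 and 2.72 ± 0.33 above control, but 9 spots around it had median log2 ratios of 1.45 and 1.56, and with their deviation removed its ratios were 0.73 and 1.19. Around the brighter probe the neighbours lay at 0.01 and -0.05. At 1.5-fold, 1 gene was lower with siRNA #7 and 2 with siRNA #8, with none higher. Of all genes, 7.9% were 1.5-fold higher and 6.66% lower with siRNA #7, and 7.58% higher and 10.5% lower with siRNA #8. These shares also apply to the lists below. *CTNNB1*, β-catenin, lay at 0.00 ± 0.04 with siRNA #7 and 0.27 ± 0.05 with siRNA #8.

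Of 18 tight junction genes, 16 were measured, with medians of 0.01 and 0.09. *PARD3*, a polarity scaffold, was 2-fold lower with siRNA #7 (-1.13 ± 0.15) and not with siRNA #8 (-0.15 ± 0.17), but a second probe gave -0.08 and -0.11. Around the first *PARD3* probe, the median of 14 spots lay at -0.80 with siRNA #7, and its own ratio was -0.28 once their deviation was removed. *TJP3*, which encodes ZO-3, read 57.8, 72.9 and 104.0 intensity units, with log2 ratios of 0.68 ± 0.25 and 1.14 ± 0.24, and was the only one 2-fold higher. At 1.5-fold, 2 were higher and 2 lower with siRNA #7, and 2 higher and 1 lower with siRNA #8. Of 9 desmosome genes, 8 were measured, with medians of -0.03 and 0.02. *PKP2*, a plakophilin of the desmosome plaque, was lower with siRNA #7 (-1.02 ± 0.19; -0.18 with siRNA #8) and was the only one past 1.5-fold there, while 1 was higher with siRNA #8.

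Of 12 epithelial regulators, 11 were measured, with medians of 0.07 and 0.05. *OVOL2*, a transcription factor that keeps epithelial cells from turning mesenchymal, read 43.8, 49.9 and 14.9 intensity units. Its log2 ratios were 0.53 ± 0.25 (#7) and -1.26 ± 0.34 (#8). No regulator passed 1.5-fold with siRNA #7, and 3 of 11 were lower with siRNA #8, where 10.5% of all genes were.

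Of 8 repressors of epithelial genes, 3 were measured (*SNAI1*, *SNAI3*, *TWIST1*), with medians of -0.28 and 0.39. *SNAI1*, the SNAIL repressor of *CDH1*, read 184.9, 350.1 and 276.7 intensity units. Its log2 ratios were 1.26 ± 0.16 (#7) and 0.88 ± 0.18 (#8), and it was the only one of the 3 past 1.5-fold. The 10 spots around it had median log2 ratios of 1.57 and 1.03, larger than its own ratios, and 9 and 6 of them were 2-fold higher. With the neighbours' deviation removed, the *SNAI1* ratios were -0.36 and -0.19, so the direction of *SNAI1* turns with the position correction. *SNAI2*, *ZEB2*, *TWIST2* and *TCF4* were at background on all arrays. The brighter *ZEB1* probe read 23.7, 3.65 and 9.19 intensity units and was at background under siRNA #7 only. By the bound its control level was 2.77-fold that with siRNA #7, and the log2 ratio with siRNA #8 was -1.07 ± 0.41. As with *VIM*, the *ZEB1* signal was highest with control siRNA at a low intensity.

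Of 9 other mesenchymal genes, 3 were measured, with medians of 0.14 and -0.14. *SPARC*, a matrix glycoprotein, read 79.7, 27.6 and 58.9 intensity units and was lower with siRNA #7 (-1.19 ± 0.33), with -0.14 for siRNA #8. At 1.5-fold, 1 was lower with siRNA #7 (6.66% of all genes were) and 1 higher with siRNA #8 (7.58%). *CDH2*, *FN1*, *MMP2*, *COL5A1* and *TGFBI* were at background on all arrays. The brighter *TAGLN* probe was at background under siRNA #7 only, and the dimmer *TAGLN* probe on all arrays. Of 6 other intermediate filament genes of types III and IV, 3 were measured, with medians of 0.10 and 0.09. *NES*, nestin, read 180.1, 54.9 and 156.6 intensity units, with log2 ratios of -1.37 ± 0.19 and 0.09 ± 0.18. A second *NES* probe gave -0.52 ± 0.33 and 0.18 ± 0.26. *NES* was the only one past 1.5-fold. Of these 6 measured genes of the mesenchymal and filament lists, *SPARC* and, by its brighter probe, *NES* were thus 2-fold lower under siRNA #7 (1.68% of all genes were), and none was under siRNA #8 (3.09%).

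**Figure D4:**
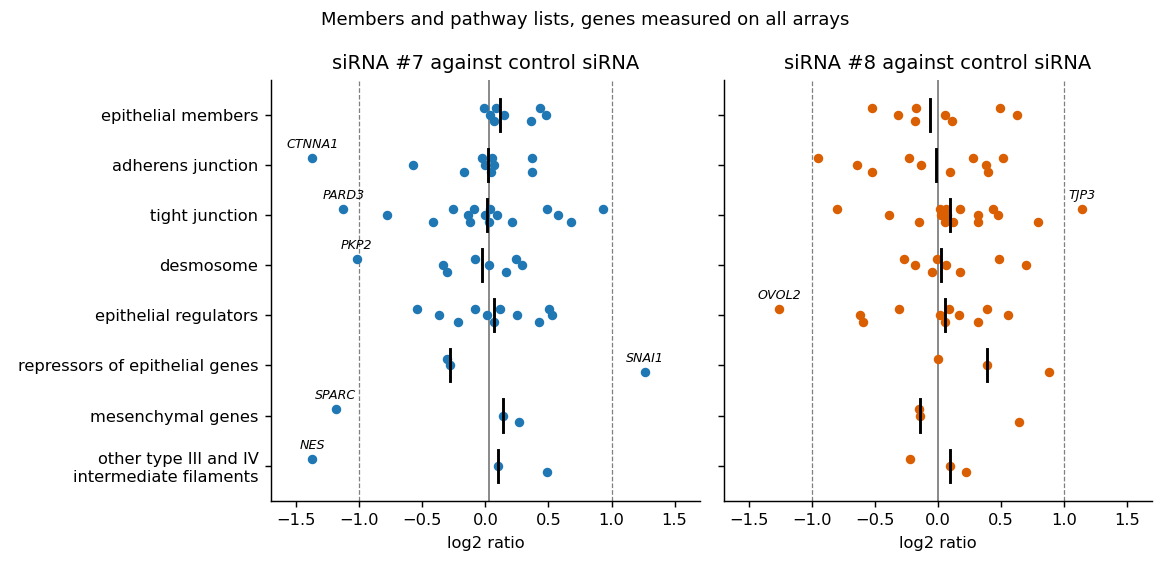
Log2 ratio to control siRNA of each measured gene (points) in the epithelial members and the pathway lists, with the list median (black bar), the median of all genes (grey line) and 2-fold (dashed lines). Genes past 2-fold are named: *CTNNA1*, *PARD3*, *PKP2*, *SPARC* and *NES* lower and *SNAI1* higher with siRNA #7, *OVOL2* lower and *TJP3* higher with siRNA #8; spots around *SNAI1* and *PARD3* shifted with them (medians 1.57 and -0.80 with siRNA #7).

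**Figure D5:**
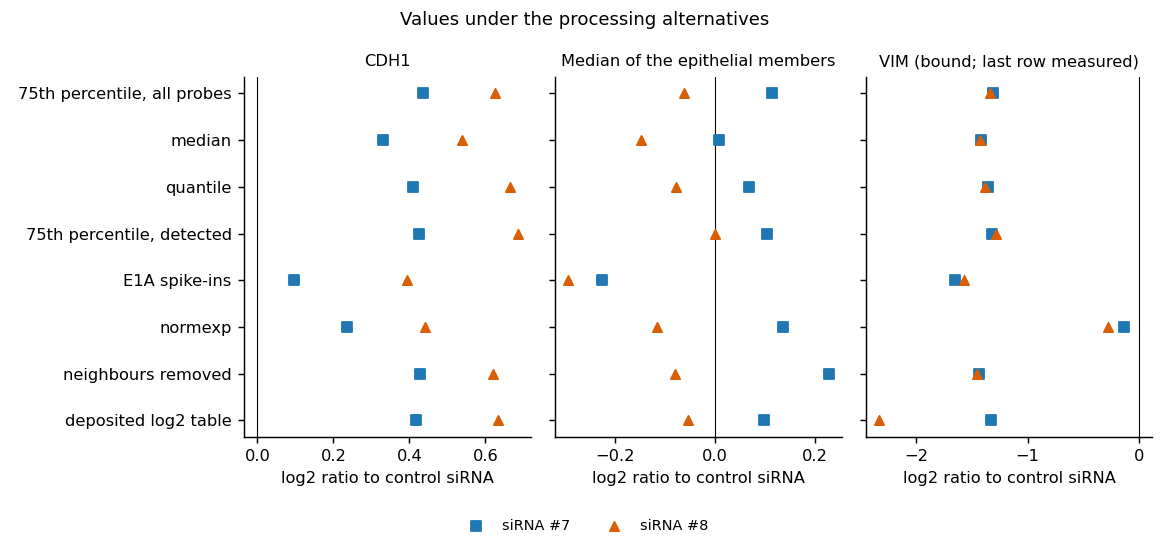
Log2 ratio to control siRNA of *CDH1*, of the median epithelial member and of *VIM* under 8 ways of scaling or correcting the arrays, for siRNA #7 and siRNA #8. *CDH1* stays above 0 throughout, and the epithelial median lies on both sides of 0. *VIM* is a bound, which by its definition cannot lie above 0, except in the deposited log2 table (-1.33 and -2.33).

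SNAIL and ZEB proteins bind E-boxes, here the letters CAGGTG on either strand (CACCTG on the other). RefSeq promoters of GRCh38.p14, 250 bases before to 50 bases after a start site, were listed for 7 of the 10 members, with 12 start sites. *CDH1*, *EPCAM* and *ESRP1* were not among them. The letters were found in 20.6% of 35116 promoters of the same length, and in 5 of the 12 member promoters. They came from *CLDN3* (1 match), *OCLN* (1 and 2 matches at its start sites), *TJP1* (1 match at 1 of 4 start sites) and *CLDN7* (5 matches at 1 of 2 start sites). Of all promoters, 0.635% held 3 or more. The promoters of *CLDN7*, the member on which the siRNAs differed most, and of *VIM*, the member furthest from control, are shown with matches in capitals. The *CLDN7* window is on the minus strand and that of *VIM*, which holds no match, on the plus strand.
CLDN7, chr17:7262429-7262728: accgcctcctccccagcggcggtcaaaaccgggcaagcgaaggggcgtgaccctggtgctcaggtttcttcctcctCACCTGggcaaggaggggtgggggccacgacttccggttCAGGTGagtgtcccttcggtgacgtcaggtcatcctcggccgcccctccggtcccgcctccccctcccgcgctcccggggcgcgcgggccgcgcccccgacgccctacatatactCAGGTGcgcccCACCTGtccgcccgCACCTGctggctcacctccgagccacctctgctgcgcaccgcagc
VIM, chr10:17227991-17228290: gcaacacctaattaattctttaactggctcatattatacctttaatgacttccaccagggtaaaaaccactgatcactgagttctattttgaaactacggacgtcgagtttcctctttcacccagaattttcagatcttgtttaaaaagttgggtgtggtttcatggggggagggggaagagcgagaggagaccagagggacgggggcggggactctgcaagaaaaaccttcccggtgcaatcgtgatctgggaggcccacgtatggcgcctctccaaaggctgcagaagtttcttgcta
A match is a description of the letters and was not set against any binding data.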

How the data were processed

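Total RNA of HCT116 cells was hybridised to Agilent 1-colour arrays, 1 array for each condition, and groups came from the sample titles. The authors deposited spot intensities, background-subtracted by Agilent Feature Extraction 11.5.1.1 and not scaled between arrays, and a table of log2 values, each probe centred over the arrays, whose normalization the deposited table does not state.

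Outlier-flagged spots (313 to 413 per array) were removed, the others of each probe were averaged on the log2 scale, and the 75th percentile of each array was subtracted. A probe was well above background where at least 50% of its spots had that flag. A gene was read from its brightest probe that was so on all arrays and at or above the 20th percentile on at least 2. Accessions were matched without version to RefSeq symbols of GRCh38.p14, which named 30000 probes. The spot-to-spot SD was pooled in 6 ranges of signal, and for a ratio it was divided by the square root of the probe's number of spots. A bound sets the higher signal against the larger of the dim probe's own signal and the lowest signal well above background on that array. It makes no allowance for spot-to-spot error, and probes without the flag can read above that lowest signal. A bound is therefore not a strict minimum.

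Members and lists (adherens junction, tight junction, desmosome, epithelial regulators, repressors, mesenchymal genes, intermediate filaments, cell type markers) were chosen with earlier results of these data known. All members were named, and of the lists the genes past 2-fold and, among repressors and mesenchymal genes, those not well above background. *CTNNB1*, *NECTIN4* and second probes of list genes were added after their values were seen. 1 gene of the mesenchymal list is not reported here.

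Conditions were not tested, since the number of arrays limits the precision to spot-to-spot error. A fit in limma 3.58.1 (R 4.3.3) took the arrays of both siRNAs as a silenced group of 2, with the lone control assumed to vary like them. Only its log2 differences are given. That fit and the scaling were checked on simulated data whose changes were larger than those of the epithelial members and alike with both siRNAs. Changes of the members' size, or siRNAs that differ, were not simulated. Other steps used Python 3.11.15, numpy 2.4.6 and pandas 2.3.3. Alternatives were other scalings, normexp on median spot signals (no mean signal was used here), other filters, 1.5-fold, the mean of a gene's probes, the deposited log2 table and removal of the median deviation of spots within 3 rows and 3 columns, which was extended to the list genes after seeing the data.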

Additional observations from a re-analysis of the deposited data

How the results depend on the processing

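With 1 array per condition the limits lie in the design: culture-to-culture spread is not measured, and signals of a few units, as for *VIM*, *ZEB1* and *OCLN*, are near the background of the scanner. No paired analysis was possible because there is only 1 array per condition.

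The count of members past 2-fold (1 with either siRNA and with both, *VIM* by its bound) fell to 0 with siRNA #7, with siRNA #8 and with both under normexp background correction. Normexp adds an offset of 50 to each signal, more than the *VIM* control signal of 21.7 units. A 2-fold *VIM* difference was out of reach there whatever the siRNA signal, so this fall cannot bear on *VIM*. At 1.5-fold the count rose to 2 with siRNA #8, by *CDH1*. In limma, with both siRNA arrays against the lone control, *VIM* was not fitted, since its probe was not well above background on all arrays. That fit therefore cannot bear on the count. For the 8 members fitted, the log2 difference lay between -0.14 (*OCLN*) and 0.53 (*CDH1*). The median of the epithelial members moved to -0.23 with siRNA #7 and to -0.29 with siRNA #8 under E1A scaling, and the *VIM* ratios moved to -0.14 and -0.28 under normexp. With siRNA #8 the *VIM* ratio was -2.34 without a filter and -2.33 in the deposited log2 table, since these settings give the measured signal in place of a bound. Over the other alternatives the *VIM* ratio ranged down to -1.65 with siRNA #7, the E1A scaling. The sign of a member's own ratio was the same under all 10 alternatives for *CDH1*, *CLDN7* and *ESRP1* with both siRNAs and for *CLDN3*, *OCLN* and *TJP1* with siRNA #8. The filter alternatives left the ratio of each measured epithelial member as it was, so they could not turn a sign. The mean of a gene's probes changed only *CLDN7*, whose second probe alone lay at 0.08 with siRNA #8, opposite in sign to the brighter one. The sign turned in 1 to 4 of 10 for *EPCAM* and *CLDN4* with both and for *CLDN3*, *OCLN* and *TJP1* with siRNA #7. E1A scaling moved the median of all genes by more than any other scaling, and genes 2-fold lower then outnumbered those higher by 582 to 118 with siRNA #7 and by 708 to 123 with siRNA #8, against 202 to 255 and 372 to 229 in the main analysis. With the median of each array it was 266 lower to 200 higher and 466 to 179. Normexp left 93 lower and 72 higher with siRNA #7 and 151 lower and 48 higher with siRNA #8. The cause of these shifts was not tested. Removal of the neighbouring spots' deviation, applied to the list genes past 2-fold after seeing the data, turned *SNAI1* with siRNA #7 from 1.26 to -0.36 and left *PARD3* at -0.28.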

Other observations

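*NECTIN4*, an adhesion receptor of the adherens junction that was not measured on all arrays, read 5.10, 11.9 and 10.4 intensity units (control, #7, #8). It was well above background with the siRNAs only, and by the bound it was 2.46-fold higher with siRNA #7 and 2.08-fold higher with siRNA #8. This rests on 1 probe, at background with control siRNA, and the gene was added after its values were seen. Over all probes, 357 were well above background with siRNA #7 and not with control siRNA, and 462 with siRNA #8. How many of those were 2-fold higher by the bound was not counted.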
